A study of Mus musculus with 42 samples.

Results

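The genes described here are the chemokines and chemokine receptors of the mouse reproductive tract, taken by name. They are all genes whose probe sets carry a single symbol beginning with Ccl, Ccr, Cxcl, Cxcr, Cx3cl or Cx3cr and a number. The rule gave 55 probe sets for 50 genes, out of 28856 probe sets and 19938 genes with 1 symbol. They comprised 19 CC ligands, 13 CXC ligands, Cx3cl1, 10 CC receptors, 6 CXC receptors and Cx3cr1. All 50 were tested in every comparison, with no filter on low values. A further 7 probe sets, which carry several symbols of the Ccl21 and Ccl27 families, were left out by the rule.

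RNA was measured on 42 whole-transcript arrays in 14 groups of 3. The uterus and the vas deferens were each taken from 4 mutants and from wild type (WT). AKO mice were Hoxa9,10,11-/-, and DKO mice were Hoxd9,10,11-/-. AKDH mice were Hoxa9,10,11-/-d9,10,11+/-, and AHDK mice were Hoxa9,10,11+/-d9,10,11-/-. The oviduct and the caudal epididymis were taken from AKO and WT mice. All mice were adults of 3 to 7 months on a mixed CD1/129 background, and the females were in diestrus. The labels name no promoter or cell type for the mutations, and they list each array as a biological replicate with no animal number. Values are on a log scale, taken as log2, and each gene was centred on its median over the arrays of a sex, so its absolute level is lost and levels of different genes are not set against each other.

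Chemokines are small secreted proteins that draw leukocytes along a gradient by way of G protein-coupled receptors on the leukocyte surface. CC and CXC ligands bind mostly receptors of the same class, and Cx3cl1 binds Cx3cr1. In the uterus, ligands from stroma and epithelium are known to bring in eosinophils, neutrophils and macrophages under the control of the ovarian steroids.

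The labels were checked first. Hoxa11 was lower in AKDH uterus than in WT uterus (log2 difference -2.78, limma adjusted p 0.0161) and in AKO vas deferens than in WT vas deferens (-1.51, adjusted p 0.00961). In AKO uterus its difference was -2.56 with an adjusted p of 0.112. Hoxd11 did not pass in DKO uterus (-0.17, adjusted p 0.865) or AHDK uterus (-0.84, adjusted p 0.183). None of the 6 targeted Hox genes was called in AKO, DKO or AHDK uterus, so no call on them checked these labels. In DKO uterus 2 of the 6 had a mean above WT, and their median difference was -0.11. In 3 arrays, markers of other tissue stood high beside the other arrays of the same group. The mean of 11 ovary markers was 2.12 in WT oviduct 2, against 0.0878 to 0.517 in the other WT oviducts, and the same array had the X-linked Xist at -5.92 and the Y-linked Eif2s3y at 2.09, which goes against its female label. The mean of 10 sperm markers was 0.69 in AKDH vas 3, against -1.18 and -1.04 in the other AKDH vasa. That level was close to the highest WT vas array, so AKDH vas 3 stood apart from its own group more than from WT vas. The mean of 11 proximal epididymis markers was 4.57 in AKO epididymis 1, against 0.82 and 0.76 in the other AKO epididymides. Counts that rest on these arrays are given with and without them. The mean of 11 adipocyte markers also varied in female tissue. It ran from 0.07 to 2.23 in WT oviducts and from -0.26 to 0.59 in AKO oviducts. In AKO uteri it ran from -0.13 to 1.48 and in WT uteri from -0.62 to 0.81. The part of these markers in the chemokine differences was not tested.

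The promoter windows of the genes that the results turn on are shown first. Ccl6 and Ccl9 lie on the same strand of chromosome 11 with 1 listed gene between them, and they were called together in 3 uterine comparisons. Ccr3 was called with them in 2, and Cx3cl1 was called in 3 mutants in the vas deferens. Each window runs from 250 bases before to 50 bases after the start of the gene, from RefSeq on GRCm38.p6, and is written 5′ to 3′ on the strand of the gene. The windows are chr11:83593038-83593337 on the minus strand for Ccl6, chr11:83578587-83578886 on the minus strand for Ccl9, chr9:124021721-124022020 on the plus strand for Ccr3 and chr8:94771930-94772229 on the plus strand for Cx3cl1. Capitals mark matches on either strand to TATAAA, to the PU-box GAGGAA, to the posterior Hox forms TTTACGA and TTTATGA, or to the NF-kB consensus.
Ccl6: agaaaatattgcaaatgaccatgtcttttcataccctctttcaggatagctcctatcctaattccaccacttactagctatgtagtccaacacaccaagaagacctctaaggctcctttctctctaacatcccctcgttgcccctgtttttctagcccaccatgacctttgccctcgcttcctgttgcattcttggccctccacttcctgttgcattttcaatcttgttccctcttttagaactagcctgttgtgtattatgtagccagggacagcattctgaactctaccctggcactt
Ccl9: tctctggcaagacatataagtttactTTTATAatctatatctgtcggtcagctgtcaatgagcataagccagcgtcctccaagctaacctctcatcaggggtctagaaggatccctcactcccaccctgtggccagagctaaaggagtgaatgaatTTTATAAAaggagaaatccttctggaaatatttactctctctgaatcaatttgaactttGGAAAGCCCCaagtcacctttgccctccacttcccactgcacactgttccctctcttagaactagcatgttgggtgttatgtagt
Ccr3: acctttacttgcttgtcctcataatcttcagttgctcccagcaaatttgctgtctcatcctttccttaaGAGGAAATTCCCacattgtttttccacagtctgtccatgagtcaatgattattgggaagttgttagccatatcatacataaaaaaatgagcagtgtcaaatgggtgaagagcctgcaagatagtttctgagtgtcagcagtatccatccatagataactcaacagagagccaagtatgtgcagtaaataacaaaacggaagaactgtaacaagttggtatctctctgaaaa
Cx3cl1: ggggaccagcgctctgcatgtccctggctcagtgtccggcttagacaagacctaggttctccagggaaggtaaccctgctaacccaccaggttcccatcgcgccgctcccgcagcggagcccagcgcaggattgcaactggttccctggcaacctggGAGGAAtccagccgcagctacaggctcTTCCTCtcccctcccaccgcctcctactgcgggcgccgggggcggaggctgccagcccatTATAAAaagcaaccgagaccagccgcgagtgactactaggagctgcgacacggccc

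No capital stands in the Ccl6 window, so none of these letters occurs in it. The Ccl9 window holds TATAAA at 3 places, 2 of which overlap each other, and 1 NF-kB match. The Ccr3 window holds 1 PU-box and 1 NF-kB match, which overlap. Cx3cl1 has TATAAA 1 time and the PU-box 2 times. Among all 32851 promoter windows of this length, 13.6% hold TATAAA, 28.3% the PU-box, 8.46% the NF-kB consensus, 3.71% TTTATGA and 0.597% TTTACGA. Of the 36 member genes with a listed window, 11 hold TATAAA, 12 the PU-box, 10 the NF-kB consensus, 3 TTTATGA and 0 TTTACGA. A member gene was counted if any of its windows held the letters, while the percentages are of single windows. The counts and percentages are thus in unlike units. These are matches of letters only.

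Ccl6 and Ccl9 rose in 3 of the 4 mutant uteri, and Ccr3 in DKO and AHDK uterus. In AHDK uterus, Ccl6, Ccl9, Ccr3 and Cxcl16 rose relative to WT and no member fell at a limma adjusted p below 0.05. That is 4 of 50 members higher, where 2.3% of all genes were called higher and 1.23% lower. In DKO uterus, Ccl6, Ccl9 and Ccr3 rose and no member fell, so 3 of 50 were called, where 0.622% of all genes were called higher and 0.351% lower. In AKDH uterus, Ccl6 and Ccl9 rose and Cxcl14 fell, where 3.93% of all genes were called higher and 2.65% lower. That share of members lies near the background. In AKO uterus 0 members were called by limma, where 0.0401% of all genes were called higher and 0.0502% lower. At an unadjusted p below 0.05, 7 of 50 members passed there, where 9.35% of all genes did. The 4 comparisons share the same 3 WT arrays.

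**Figure D1:**
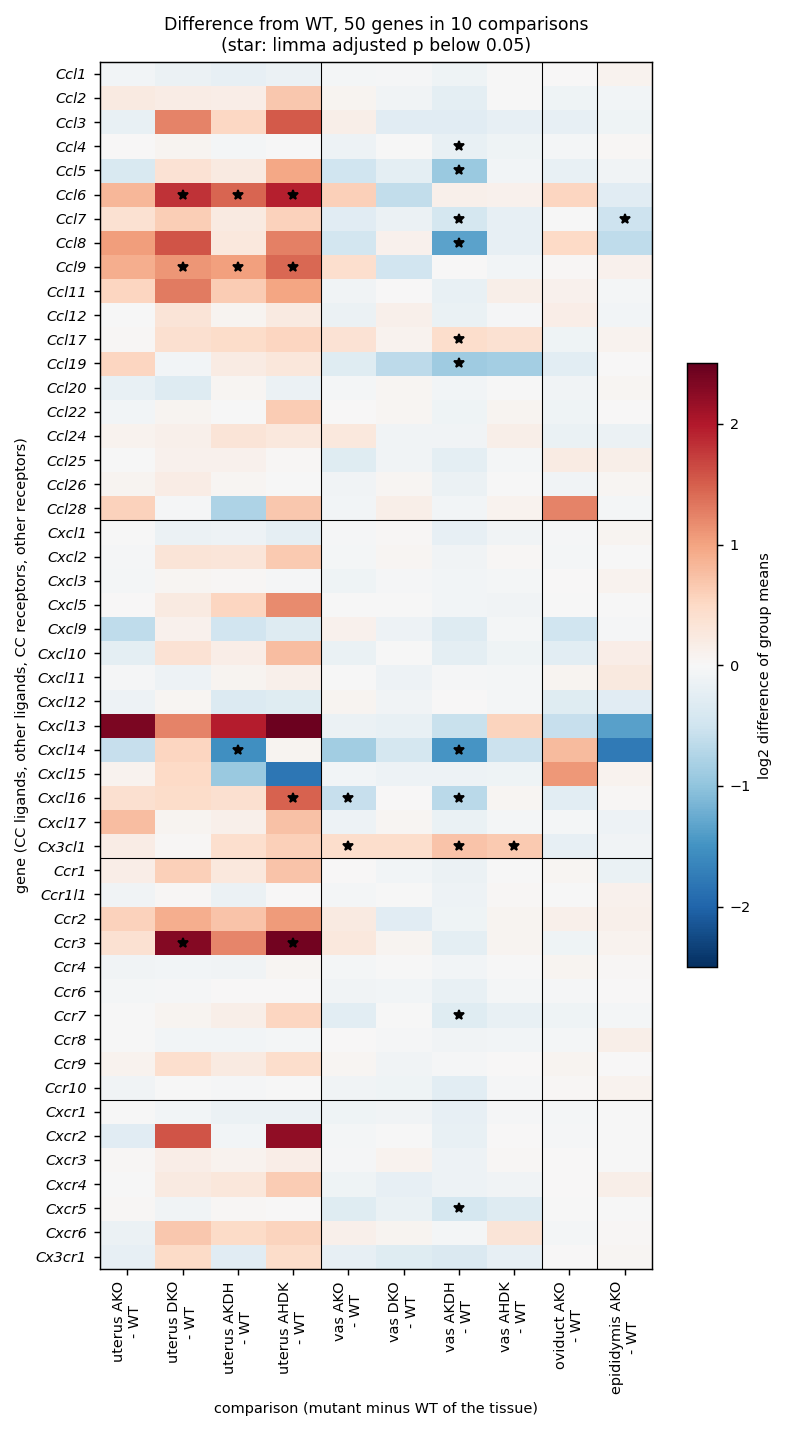
Log2 difference of each mutant from WT of its tissue (columns) for the 50 chemokine and receptor genes (rows, grouped by class), as colour from blue (lower in the mutant) to red (higher), with a star at a limma adjusted p below 0.05. The stars in the uterine columns stand at Ccl6, Ccl9, Ccr3, Cxcl14 and Cxcl16, and the column of AKDH vas deferens holds 11 stars.

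The median difference of the 50 genes from WT was 0.50 in AHDK uterus, where the median of all genes was -0.02. In DKO uterus the members' median was 0.18 against 0.01 for all genes, in AKDH uterus 0.11 against -0.01, and in AKO uterus -0.00 against 0.01. At an unadjusted p below 0.05, 24 of 50 members were higher in AHDK uterus and 0 were lower, where 11% of all genes were higher and 10.4% lower. In DKO uterus 12 were higher and 0 lower (9.54% and 5.74% of all genes), in AKDH uterus 5 and 3 (11.7% and 11%), and in AKO uterus 6 and 1 (5.73% and 3.63%). All 3 AHDK values lay above all 3 WT values for 23 members, where 14.2% of all genes did. The same was true of 14 members in DKO uterus, where 11.6% of all genes did, of 8 in AKDH uterus, where 12.1% did, and of 8 in AKO uterus, where 7.91% did. The medians in AHDK uterus were 0.59 over the ligands and 0.44 over the receptors.

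**Figure D2:**
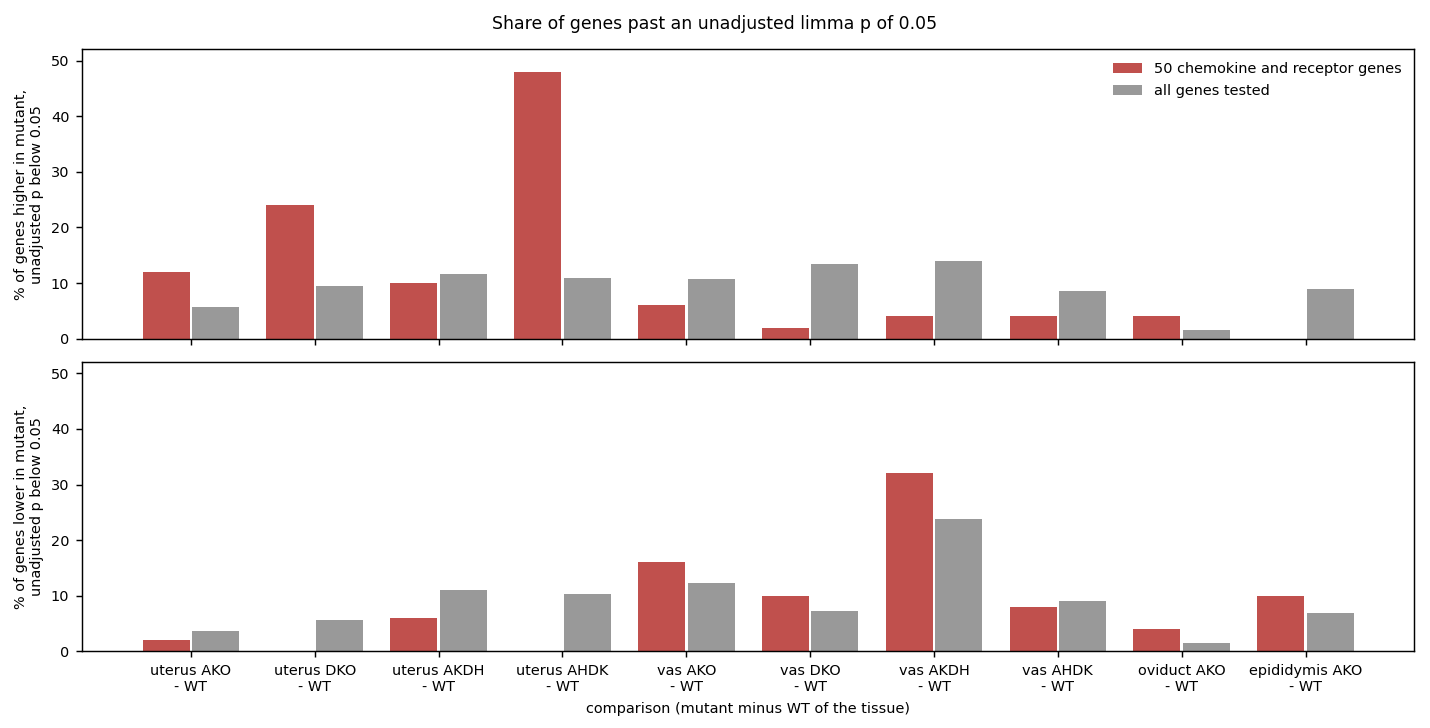
Percent of genes higher (upper panel) and lower (lower panel) in the mutant than in WT at an unadjusted limma p below 0.05, for the 50 chemokine and receptor genes (red) and for all 19938 genes (grey), in 10 comparisons. In AHDK uterus the members reach 48% higher beside 11% of all genes, and in the vas deferens no red bar on the higher side exceeds the grey one.

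Ccr3 is the eotaxin receptor, known for its high level on eosinophils. Its values were 2.38, 2.13 and 2.17 in AHDK uterus, 3.13, 1.42 and 1.78 in DKO uterus, 0.86, 1.77 and 0.43 in AKDH uterus and -0.31, -0.05 and 0.93 in AKO uterus, against 0.00, -0.31 and -0.27 in WT uterus. AHDK, DKO and AKDH arrays all lay above every WT array, while AKO arrays overlapped with WT. Its difference from WT was 2.42 ± 0.44 in AHDK uterus (SE, n = 3 each, limma adjusted p 0.0170) and 2.30 ± 0.44 in DKO uterus (adjusted p 0.0397). In AKDH uterus it was 1.21 (adjusted p 0.124), and in AKO uterus 0.38 (adjusted p 0.898). In whole tissue, more cells that carry a gene and more RNA per cell cannot be told apart.

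Ccl6 is a CC ligand made by macrophages and other myeloid cells. It stood at 0.90, 0.49 and 0.42 in AHDK uterus, 1.21, 0.22 and 0.00 in DKO uterus, -0.01, 0.29 and 0.08 in AKDH uterus and -0.62, -0.54 and -0.34 in AKO uterus, against -1.53, -1.43 and -1.05 in WT uterus. Every mutant array lay above every WT array, and the AKO arrays lay below every other mutant array. The differences from WT were 1.93 ± 0.26 in AHDK uterus (limma adjusted p 0.00733), 1.81 ± 0.26 in DKO uterus (adjusted p 0.0236) and 1.46 ± 0.26 in AKDH uterus (adjusted p 0.00921), with SE and n = 3 each. In AKO uterus the difference of 0.83 did not pass (adjusted p 0.258).

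Ccl9, a mouse ligand of Ccr1, had the same order of group means. It measured 0.89, 0.57 and 0.42 in AHDK uterus, 0.86, -0.08 and 0.07 in DKO uterus, 0.00, 0.05 and 0.62 in AKDH uterus and 0.05, 0.17 and 0.05 in AKO uterus, against -0.82, -0.92 and -0.70 in WT uterus. No mutant array overlapped with WT. It rose by 1.44 in AHDK uterus (limma adjusted p 0.0116), by 1.10 in DKO uterus (adjusted p 0.0468) and by 1.03 in AKDH uterus (adjusted p 0.0226), and its difference of 0.90 in AKO uterus had an adjusted p of 0.169.

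**Figure D3:**
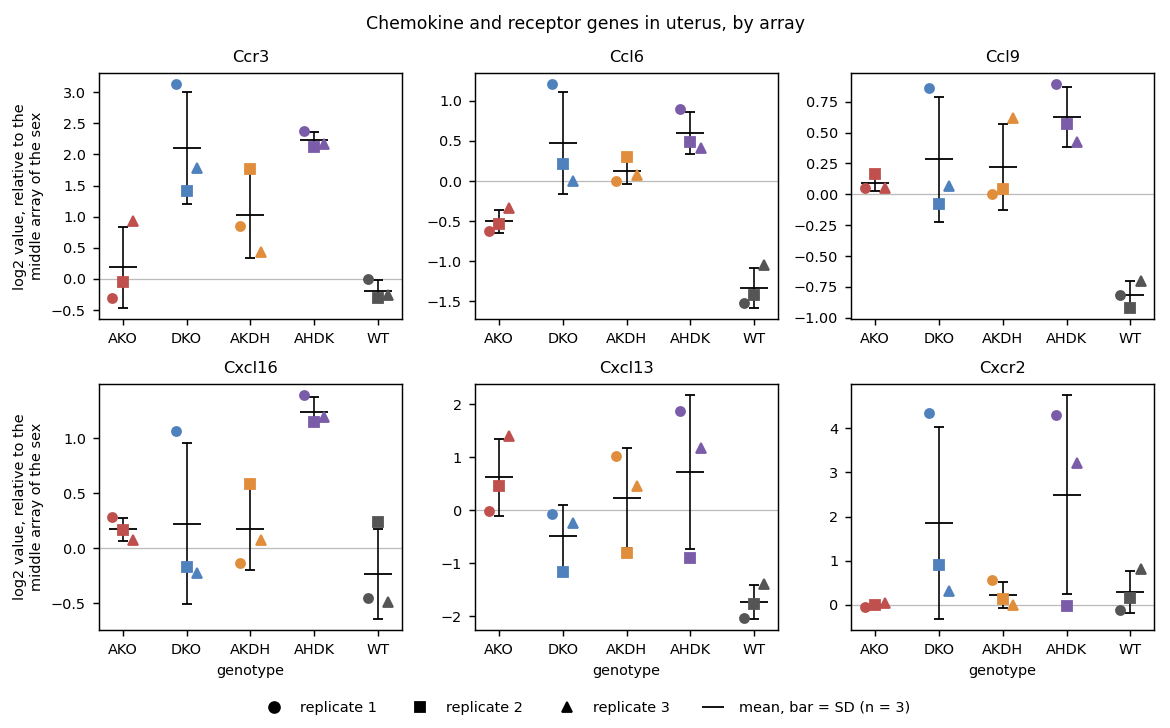
Values of Ccr3, Ccl6, Ccl9, Cxcl16, Cxcl13 and Cxcr2 in the 15 uterus arrays by genotype, on a log2 scale relative to the middle female array. Symbols are single arrays, and the horizontal line and bar are the mean and SD (n = 3). The 3 AHDK arrays hold Ccr3 between 2.13 and 2.38, above all WT arrays, while Cxcr2 in AHDK splits into 4.30 and 3.22 against -0.03.

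Several other CC ligands, and the monocyte receptor Ccr2, had positive differences that did not pass the test. Ccl11 (eotaxin, the main eosinophil attractant) was at 0.90, 1.30 and 0.62 in DKO uterus, against -0.27, -0.44 and -0.40 in WT uterus. The groups did not overlap, and the difference was 1.31 (limma adjusted p 0.0647). In AHDK uterus Ccl11 differed from WT by 1.00 (adjusted p 0.0868). Ccl8, a ligand of Ccr8 in the mouse, differed by 1.26 in AHDK uterus (adjusted p 0.123) and 1.57 in DKO uterus (adjusted p 0.109). Ccl3, a ligand of Ccr1, differed by 1.53 in AHDK uterus (adjusted p 0.0812) and 1.25 in DKO uterus (adjusted p 0.208). Ccl2, which binds Ccr2, differed by 0.68 in AHDK uterus (adjusted p 0.0563), and Ccr2 itself by 1.06 (adjusted p 0.126). Of these, Ccl8, Ccl3, Ccl2 and Ccr2 were picked after their values were seen.

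Cxcl16, a membrane-bound ligand of Cxcr6 on T cells, rose in AHDK uterus. It stood at 1.39, 1.14 and 1.19 in AHDK uterus and at 1.07, -0.17 and -0.23 in DKO uterus, against -0.45, 0.24 and -0.48 in WT uterus. AHDK arrays lay above every WT array, while 1 DKO array stood far above the other DKO arrays. The AHDK difference was 1.47 ± 0.31 (SE, n = 3 each, limma adjusted p 0.0276). AHDK minus DKO was 1.02 with an adjusted p of 0.486, so a difference between these 2 mutants was not called.

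Cxcl13, the B cell attractant of lymphoid follicles, varied widely between arrays of a group. Its values were 1.88, -0.90 and 1.18 in AHDK uterus, 1.03, -0.80 and 0.47 in AKDH uterus, -0.07, -1.17 and -0.23 in DKO uterus and -0.00, 0.46 and 1.41 in AKO uterus, against -2.03, -1.77 and -1.39 in WT uterus. All 12 mutant arrays lay above all WT arrays. The differences of 2.45 in AHDK uterus (limma adjusted p 0.0638), 1.96 in AKDH uterus (adjusted p 0.0991), 1.24 in DKO uterus (adjusted p 0.406) and 2.35 in AKO uterus (adjusted p 0.214) did not pass.

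Cxcl14, a ligand made by many epithelia, fell in AKDH uterus. It was at -1.31, -0.11 and -1.37 in AKDH uterus, against 0.70, 0.87 and 0.23 in WT uterus. The groups did not overlap, and Cxcl14 fell by 1.53 on the log2 scale (limma adjusted p 0.0218). AKDH minus AKO was -0.95 with an adjusted p of 0.342. In AKO uterus Cxcl9, an interferon-induced ligand of Cxcr3, was at -0.33, -0.33 and -0.12, against 0.37, 0.00 and 0.74 in WT uterus. Its difference of -0.63 had an adjusted p of 0.262.

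Cxcr2, the main neutrophil receptor, divided the arrays within groups. It was at 4.30, -0.03 and 3.22 in AHDK uterus and at 4.35, 0.90 and 0.32 in DKO uterus, against -0.11, 0.15 and 0.81 in WT uterus. In each of these mutants at least 1 array lay within or below the WT range, and no call was made. Its ligand Cxcl5 stood at 1.21, 0.29 and 1.96 in AHDK uterus, against -0.04, 0.15 and -0.17 in WT uterus, with a difference of 1.18 and an adjusted p of 0.0826. Both genes were picked after their values were seen.

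The remaining members of the uterus are given by their range. In AHDK uterus the differences of all 50 ran from -1.80 (Cxcl15, a lung epithelial ligand of the mouse) to 2.45 (Cxcl13), and in DKO uterus from -0.33 (Ccl20) to 2.30 (Ccr3). Cxcl15 stood at -2.08, -0.98 and -0.97 in AHDK uterus, against -1.78, 0.98 and 2.17 in WT uterus. The groups overlapped through 1 low WT array, WT 1, and the adjusted p was 0.236 by limma. In AKDH uterus the range was -1.53 (Cxcl14) to 1.96 (Cxcl13), and in AKO uterus -0.63 (Cxcl9) to 2.35 (Cxcl13).

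No member was called by limma in the 3 uterine contrasts between mutants, where few or no genes were. Of all genes 0.186% were called for DKO minus AKO, 0% for AKDH minus AKO and 0.0251% for AHDK minus DKO. There were 11, 3 and 10 members at an unadjusted p below 0.05, where 13.6%, 10.3% and 7.47% of all genes were. DKO minus AKO uterus was 1.92 for Ccr3 (limma adjusted p 0.104) and 0.98 for Ccl6 (adjusted p 0.143). AKDH minus AKO uterus was 0.83 for Ccr3 (adjusted p 0.559) and 0.62 for Ccl6 (adjusted p 0.426). AHDK minus DKO uterus was 0.12 for each of Ccr3 (adjusted p 0.979) and Ccl6 (adjusted p 0.953). With 3 arrays a group these p-values do not show that the mutants are alike.

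Macrophage and dendritic cell markers moved with these genes in the uterus. Of 22 macrophage and dendritic cell markers, 10 were called higher and 0 lower in AHDK uterus, where 2.3% of all genes were called higher. Their median difference was 0.96. In DKO uterus 2 of the 22 were called higher (0.622% of all genes), with a median of 0.65. In AKDH uterus 2 were (3.93% of all genes), with a median of 0.21. The mean over the list of 22 ran from 0.50 to 0.84 in AHDK arrays and from 0.15 to 0.75 in DKO arrays. It ran from -0.10 to 0.42 in AKDH arrays and from -0.02 to 0.02 in AKO arrays, against -0.36 to -0.13 in WT arrays. Every mutant array thus lay above every WT array, in AKO and AKDH uterus too. In AHDK uterus the antigen-presentation genes Cd74 (0.93) and H2-Aa (1.58) and the myeloid genes Itgam (1.69) and Aif1 (0.86) rose. Of 12 neutrophil markers, 1 was called in each of AHDK and DKO uterus. It was Retnlg, which rose by 3.70 in AHDK uterus and 3.45 in DKO uterus. Of 13 T and NK cell markers, 0 were called in any mutant uterus by limma. Their medians were 0.10 in AHDK, 0.26 in DKO, -0.08 in AKDH and -0.21 in AKO uterus. Of 9 B and plasma cell markers, 1 was called higher in each of AHDK and AKDH uterus and 0 in DKO and AKO uterus. Their medians were 0.37 in AHDK, 0.42 in AKDH, 0.40 in DKO and 0.04 in AKO uterus. Of 9 mast cell markers, 1 was called higher in AHDK uterus (median 0.40) and 0 in the other mutants (medians 0.14 to 0.32).

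None of the 6 measured eosinophil markers was called by limma in a uterine comparison. Il5ra, the interleukin-5 receptor of eosinophils, differed from WT by 0.50 in AHDK uterus (adjusted p 0.0866) and 0.58 in DKO uterus (adjusted p 0.0912). Siglecf, another eosinophil surface marker, differed by 0.49 in AHDK uterus (adjusted p 0.138). The list was not uniform. Of the 6, 4 had a mean above WT in AHDK uterus (median difference 0.22) and 5 in DKO uterus (median 0.40). Over the list the mean ran from 0.13 to 0.25 in AHDK arrays and from 0.24 to 0.44 in DKO arrays, against -0.04 to 0.02 in WT arrays. Every AHDK and DKO array lay above every WT array. Of 19 measured genes of chemokine receptor signalling, AHDK uterus had 5 called higher, where 2.3% of all genes were. Among them were the leukocyte GTPase Rac2 (1.34) and the PI3-kinase subunits Pik3cg (0.72) and Pik3r5 (0.80). DKO uterus had 2 called higher, Rac2 (1.25) and the phospholipase Plcb2 (0.73), where 0.622% of all genes were. AKDH uterus had 1 called lower, the arrestin Arrb2 (-0.85), where 2.65% of all genes were. Their part in the chemokine differences was not tested.

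**Figure D4:**
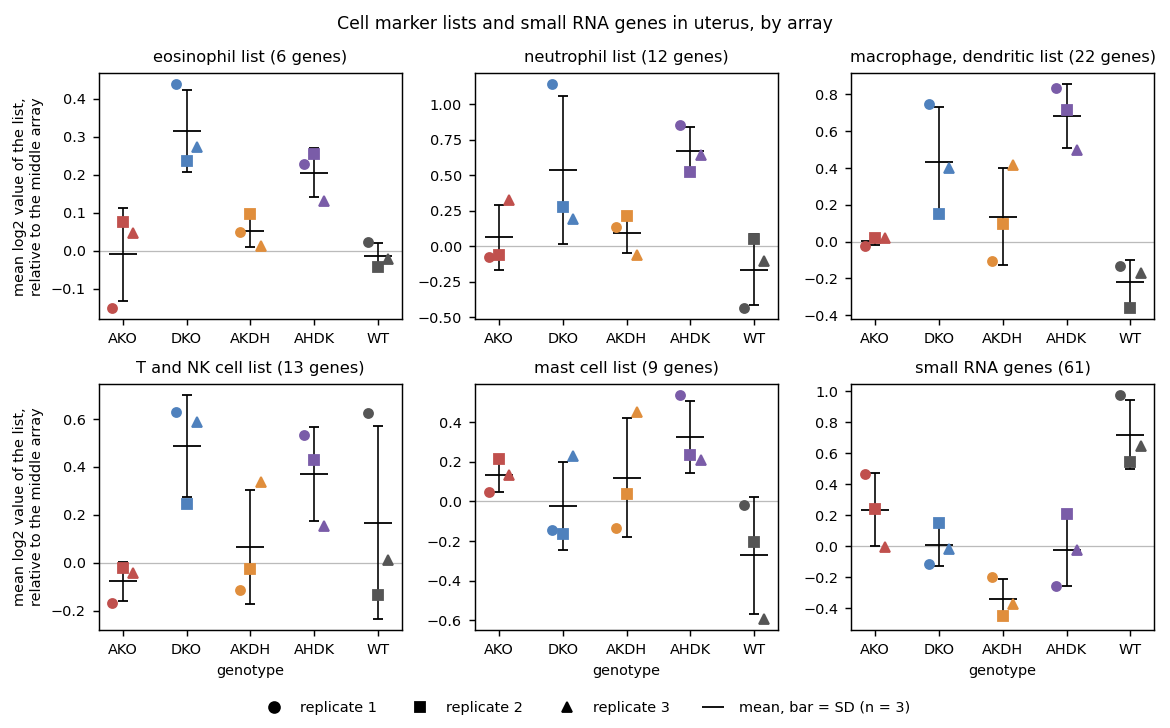
Mean log2 value over 5 cell marker lists and over 61 small RNA genes in each of the 15 uterus arrays, by genotype, with the mean and SD of each group (n = 3). The macrophage and dendritic list is above all WT arrays in every mutant array, and the small RNA genes are higher in every WT array than in any mutant array.

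Small RNA genes also separated WT from mutant uterus. The mean of 61 small RNA genes lay between -0.25 and 0.21 in AHDK arrays, between -0.45 and -0.20 in AKDH arrays, between -0.12 and 0.15 in DKO arrays and between -0.00 and 0.47 in AKO arrays, against 0.54 to 0.97 in WT arrays. Every WT array was above every mutant array, so this measure and the genotype cannot be told apart. With it as a covariate, limma called 0 genes of all 19938 in AHDK, DKO and AKDH uterus and 9 in AKO uterus, none of them members, so the loss was not limited to chemokine genes. At an unadjusted p below 0.05, 3 members passed in AHDK, 2 in DKO, 1 in AKDH and 1 in AKO uterus. Of all genes 4.72%, 4.06%, 7.02% and 8.14% passed there, so the members' shares lay near or below the background. The differences of Ccl6 from WT were 1.23 in AHDK uterus, 1.13 in DKO uterus and 0.45 in AKDH uterus. Those of Ccr3 were 1.30 in AHDK uterus and 1.22 in DKO uterus.

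The uterine calls rested on few arrays. Over 13 alternative settings each, the DKO call was kept in 8 for Ccl6, 3 for Ccr3 and 1 for Ccl9. The AHDK call was kept in 12 for Ccl6, 11 for Ccl9, 8 for Ccr3 and 7 for Cxcl16, and the AKDH call of Cxcl14 in 6. Leaving out 1 array at a time left between 0 and 1 member called in DKO uterus (Ccl6 without any one DKO array, none without any one WT array). In AHDK uterus, 1 member was called without AHDK 1 (Ccl6) and 2 without AHDK 3 or without WT 3 (Ccl6 and Ccl9). Cxcl16 lost its call there without WT 1, where Cxcl15 was called, and without AHDK 2. The difference of Ccr3 itself stayed between 2.34 and 2.51 there, with adjusted p values of 0.0886 without AHDK 1, 0.0608 without AHDK 3 and 0.0597 without WT 3. In AKDH uterus 1 member, Ccl6, was called without AKDH 3 or without WT 2.

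In the vas deferens Cx3cl1 was called higher in 3 of the 4 mutants. In AKDH vas 9 of 50 members were called lower, where 14.8% of all genes were. Cx3cl1 (fractalkine) is a membrane-bound ligand on epithelium and endothelium. It stood at 0.01, -0.11 and -0.29 in AKO vas, -0.13, 0.04 and -0.27 in DKO vas, 0.00, 0.05 and 0.38 in AKDH vas and 0.01, 0.12 and 0.16 in AHDK vas, against -0.70, -0.62 and -0.37 in WT vas. Every mutant array lay above every WT array. The rises were 0.71 ± 0.12 in AKDH vas (SE, n = 3 each, limma adjusted p 0.00184), 0.66 in AHDK vas (adjusted p 0.0136) and 0.43 in AKO vas (adjusted p 0.0471), while the DKO difference of 0.44 had an adjusted p of 0.0587. The DKO difference, though not called, was thus about as large as the called AKO difference. The call of Cx3cl1 was kept in 5 of 13 alternative settings in AKO vas and in 10 of 13 in AHDK vas. These comparisons with WT share their WT arrays too. Its receptor Cx3cr1 was not called in any of them, with differences from -0.36 to -0.20.

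Among the members, AKDH vas had 2 called higher and 9 lower, where 9.57% of all genes were called higher and 14.8% lower. These members' shares, 4% and 18%, lay near the background. AKO vas had 1 higher and 1 lower, where 4.91% of all genes were called higher and 4.44% lower. AHDK vas had 1 higher and 0 lower, where 2.08% and 2.07% were. DKO vas had 0 called by limma, where 3.85% were called higher and 2.02% lower.

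At an unadjusted p below 0.05, 2 members were higher and 16 lower in AKDH vas, where 14% and 23.8% of all genes were. AKO vas had 3 higher and 8 lower (10.7% and 12.3% of all genes), DKO vas 1 and 5 (13.4% and 7.29%) and AHDK vas 2 and 4 (8.56% and 9.09%). All 3 AKDH values lay below all 3 WT values for 30 of 50 members, where 27.7% of all genes did. The median difference of the members in AKDH vas was -0.15, against -0.05 over all genes.

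Cxcl16 was at -0.14, 0.00 and -0.34 in AKDH vas and at -0.12, 0.02 and -0.13 in AKO vas, against 0.18, 0.68 and 0.66 in WT vas. Both mutants lay wholly below WT. Cxcl16 fell by 0.67 in AKDH vas (limma adjusted p 0.00312) and by 0.59 in AKO vas (adjusted p 0.0137). In AHDK and DKO vas its values, 0.46 to 0.70 and 0.42 to 0.59, overlapped with WT.

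Ccl8 measured -1.31, -0.96 and -1.57 in AKDH vas, against 0.47, 0.33 and -0.61 in WT vas, with no overlap and a difference of -1.34 (adjusted p 0.0226). Cxcl14 measured -0.81, -0.86 and -0.97 in AKDH vas, against 1.23, 0.67 and -0.11 in WT vas, and differed by -1.48 (adjusted p 0.0149). Ccl5, a T cell and monocyte attractant, differed by -0.93 (adjusted p 0.00924). The lymph node ligand Ccl19 differed by -0.89 (adjusted p 0.0307) and its receptor Ccr7 by -0.30 (adjusted p 0.0131). Cxcr5, the receptor of Cxcl13 on B cells, differed by -0.44 (adjusted p 0.00638), Ccl7 by -0.45 (adjusted p 0.0170) and Ccl4 by -0.18 (adjusted p 0.0468). Ccl17, a ligand of Ccr4 whose gene neighbours Cx3cl1 with 1 listed gene between them, rose by 0.43 (adjusted p 0.0128), with values of 0.03, 0.02 and 0.00 in AKDH vas and -0.49, -0.44 and -0.31 in WT vas. Ccl19 is the mean of 5 probe sets, and near-identical copies of a gene may share them, so its level is uncertain.

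**Figure D5:**
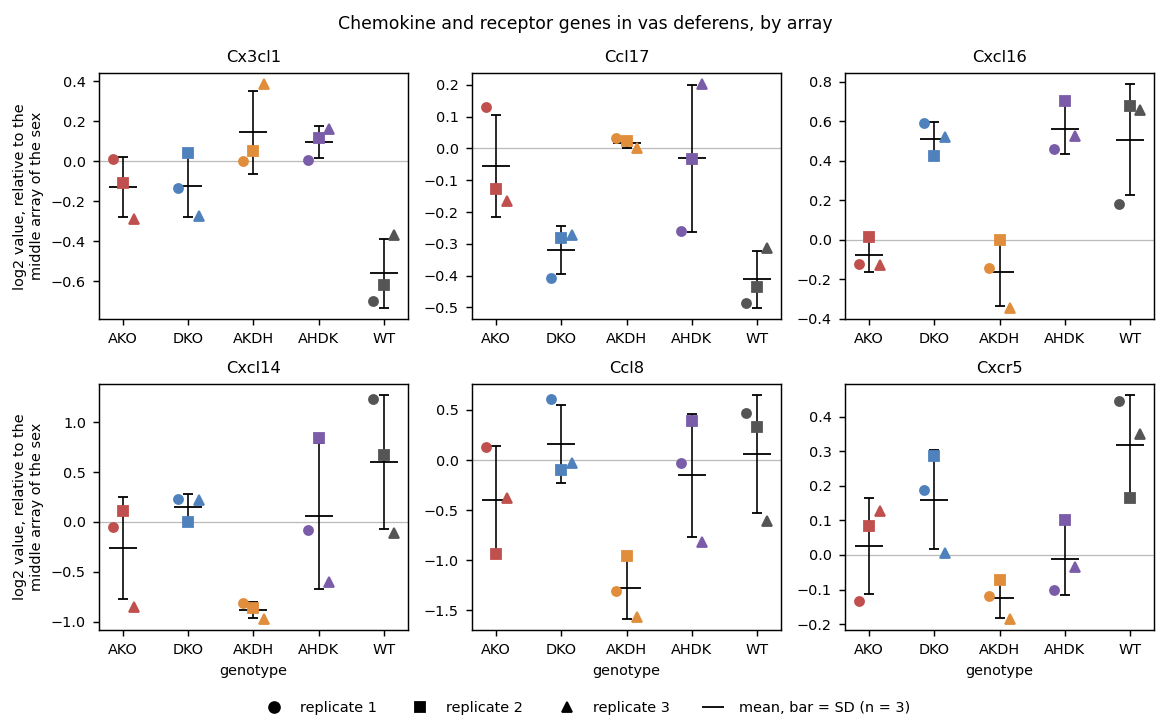
Values of Cx3cl1, Ccl17, Cxcl16, Cxcl14, Ccl8 and Cxcr5 in the 15 vas deferens arrays by genotype, on a log2 scale relative to the middle male array, with single arrays as symbols and the mean and SD (n = 3) as line and bar. All 12 mutant arrays hold Cx3cl1 above the 3 WT arrays, the AKDH arrays hold Ccl17 above them, and for the other 4 genes the AKDH arrays lie below the WT arrays.

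Markers of other cells also differed in the vas deferens. The mean of 11 adipocyte markers was 1.12 to 1.45 in AKDH vas, 0.95 to 1.59 in AHDK vas, 0.28 to 1.37 in AKO vas and -0.56 to -0.16 in DKO vas, against -1.10 to 0.03 in WT vas. Of the 11, 10 were called higher in AKDH, 10 in AHDK, 8 in AKO and 0 in DKO vas. Of all genes 9.57%, 2.08%, 4.91% and 3.85% were called higher there. In AKDH vas, 5 of 22 macrophage and dendritic markers, 3 of 9 mast cell and 3 of 13 T and NK cell markers were called lower, which is to be read against the 14.8% of all genes. The mean of 10 sperm markers was -1.18 to 0.69 in AKDH vas and -1.01 to -0.78 in AKO vas, against 0.06 to 0.66 in WT vas. That of 11 proximal epididymis markers was -0.18 to 0.03 in AKDH vas and -0.09 to 0.01 in AKO vas, against -0.85 to -0.62 in WT vas. Every AKO array lay outside the WT range in both lists. Their part in the chemokine differences was not tested. The atypical receptor genes Ackr4 and Ccrl2 lie outside the name rule. They rose by 0.81 and 0.48 in AKDH vas and by 0.58 and 0.29 in AKO vas. Of 11 chemokine family genes outside the rule, 2 were called higher in AKDH vas and 3 in AKO vas. Of all genes 9.57% and 4.91% were called higher there. Without AKDH vas 3, 9 members were called in AKDH vas. The calls of Ccl8 (-1.19, adjusted p 0.0609), Ccl19 (-0.86, adjusted p 0.0624) and Ccl4 (-0.14, adjusted p 0.128) were lost there, and Cx3cl1 (0.59) and Cxcl16 (-0.58) kept theirs. Without WT 1 or WT 2, 6 and 7 were called. Ccl4 kept its call in 4 of 12 alternative settings, Ccl19 in 6 of 13 and Ccl8 in 8 of 13, while Cx3cl1, Ccl17 and Cxcr5 kept theirs in 13 of 13.

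Leaving out an array ended other calls in the vas deferens. Cx3cl1 kept its call in AKDH vas without any one array, and lost it in AHDK vas without WT 1 or WT 2, where its difference stayed at 0.59 or above. In AKO vas, Cxcl16 alone was called without WT 1 or without AKO 2, Ccr7 alone without WT 2, and no member without AKO 1. In AHDK vas, Ccl17 was called beside Cx3cl1 without AHDK 1. In DKO vas, Cx3cl1 was called without WT 3 and Ccl12 without DKO 3.

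Between DKO and AKO vas 5 of 50 members were called, where 17.8% of all genes were, so the members' share lay below the background. DKO minus AKO was -1.22 for Ccl6 (limma adjusted p 0.00713), -0.90 for Ccl9 (adjusted p 0.0351), 0.59 for Cxcl16 (adjusted p 0.00829), 0.27 for Ccl12 (adjusted p 0.0261) and 0.24 for Ccr7 (adjusted p 0.0448). Ccl6 and Cxcl16 kept the call in 13 of 13 alternative settings, Ccl9 in 7 of 13, Ccl12 in 7 of 12 and Ccr7 in 5 of 13. Ccl6 was at -0.17, -0.65 and -1.02 in DKO vas, against 0.76, 0.10 and 0.95 in AKO vas. Against WT neither mutant passed, with differences of 0.60 in AKO vas (adjusted p 0.186) and -0.62 in DKO vas (adjusted p 0.192). Ccr3 did not pass in any mutant vas, with differences from -0.24 in AKDH vas to 0.27 in AKO vas and no call.

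In the oviduct no gene was called between AKO and WT by limma, so 0 of 50 members and 0% of all genes were called. At an unadjusted p below 0.05, 2 members were higher and 2 lower, where 1.49% and 1.56% of all genes were. Ccl6 measured 0.13, 0.02 and 0.88 in AKO oviduct, against -0.05, -0.35 and -0.16 in WT oviduct, without overlap (difference 0.53, adjusted p 0.993). Ccr3 measured -0.46, -0.27 and -0.48 in AKO oviduct, against -0.24, -0.10 and -0.54 in WT oviduct, with overlap. The 4 members with the smallest p were Cxcl10 (-0.26), Ccl12 (0.17), Cxcl16 (-0.27) and Ccl28 (1.24). Ccl28 was at -0.32, -2.04 and -0.66 in WT oviduct, lowest in WT oviduct 2. Its difference ran from 0.72 to 1.58 with 1 array left out at a time. Leaving out WT oviduct 2 left the count at 0.

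The caudal epididymis of AKO mice had 1 member called lower and 0 higher, where 0.371% of all genes were called lower and 0.411% higher. Ccl7, a monocyte attractant, was at -0.02, 0.02 and 0.06 in AKO epididymis, against 0.62, 0.59 and 0.42 in WT epididymis, without overlap. It fell by 0.52 on the log2 scale, with an adjusted p of 0.049995, just under the threshold, and the call was lost without any one of the 6 arrays, at adjusted p values from 0.0697 to 0.175. At an unadjusted p below 0.05, 0 members were higher and 5 lower, where 9.02% and 6.99% of all genes were. Cxcl13 was at -1.44, -2.36 and -1.96 in AKO epididymis, against -0.43, -0.78 and -0.46 in WT epididymis, with a difference of -1.37 (limma adjusted p 0.0727). Cxcl14 had the most negative difference of the 50 (-1.77, adjusted p 0.245), and its groups overlapped. Without AKO epididymis 1, Cxcl13 was called and Ccl7 was not (difference -0.50, adjusted p 0.0697). The sperm markers also differed here, with a list mean of -0.87 to -0.49 in AKO arrays, against 1.94 to 3.34 in WT arrays, and the mean of 11 proximal epididymis markers was 0.76 to 4.57 in AKO arrays, against 0.45 to 0.71 in WT arrays. Their part was not tested.

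The AKO effect was then compared between tissues of a sex. No member was called by limma for oviduct minus uterus, where 0% of all genes were, nor for epididymis minus vas, where 7.22% were. There were 4 and 10 members at an unadjusted p below 0.05, where 4.25% and 20.2% of all genes were. For epididymis minus vas the smallest adjusted p belonged to Cx3cl1, at -0.53 (adjusted p 0.0553). Without AKO epididymis 1 and AKDH vas 3 Cx3cl1 was called, at -0.56 (adjusted p 0.0348), as 1 of 50 members where 7.32% of all genes were. For Ccl6 the oviduct effect minus the uterus effect was -0.31, and -0.39 without WT oviduct 2. For Ccr3 it was -0.49, and -0.39 without that array, and no member was called either way.

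Some members also differed between WT tissues, in shares near or below those of all genes. WT oviduct relative to WT uterus had 4 members called higher and 2 lower, where 14.5% of all genes were called higher and 9.39% lower. These members' shares, 8% and 4%, lay below the background. Higher in oviduct were Cxcl13 (2.23), Ccl6 (1.15), Cxcr4 (0.84) and Cx3cl1 (0.73), and lower were Cxcl14 (-1.60) and the mucosal ligand Cxcl17 (-0.94). Ccl6, at -0.05, -0.35 and -0.16 in WT oviduct against -1.53, -1.43 and -1.05 in WT uterus, did not overlap between the tissues. Ccr3 did not differ between them by the test (-0.10, limma adjusted p 0.884). Without WT oviduct 2, 5 of the 6 were called, all but Cxcl17, and without WT oviduct 3, 3 were (Ccl6, Cx3cl1 and Cxcl14).

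WT epididymis relative to WT vas had 4 members called higher and 7 lower, where 11.2% of all genes were called higher and 16.8% lower. These members' shares, 8% and 14%, lay near the background. Cxcl16 was lower, between -1.37 and -0.87 in WT epididymis against 0.18, 0.68 and 0.66 in WT vas (difference -1.59, limma adjusted p 4.85e-07). Cxcl9 (-1.04), Ccl5 (-0.95), Ccl19 (-0.95), Cxcr5 (-0.36), Ccr7 (-0.22) and Cxcr4 (-0.18) were lower too. Ccl17 (0.78), Cx3cl1 (0.66), Ccl7 (0.39) and Cxcl5 (0.17) were higher. Ccl6 and Ccr3 were not called, with differences of 0.01 and -0.14.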

How the data were processed

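Per the labels' protocols, a column kit gave total RNA of fresh tissue, and biotin-labelled cDNA was hybridised to whole-transcript arrays. The authors deposited log values per probe set, taken here as log2 values. The sources used here do not state their summarisation, normalization, log base or genome build. Each of the 28856 probe sets has a median of 0 over the 21 female and over the 21 male arrays, so the centring was read from the values. Array medians lay between -0.0538 and 0.0371. Background correction, a filter on dim probe sets and blocks for slide or scan could not be run on these centred values.

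The annotation gave 21789 probe sets 1 symbol, 1621 several and 5446 none. All 50 members matched the RefSeq table of GRCm38.p6 by gene ID with the same symbol, and 48 had 1 probe set (Ccl19 had 5 and Ccl25 had 2, averaged). Groups were compared with lmFit and eBayes of limma (version 3.58.1, under R 4.3.3), fitted to gene means over all 15 uterus or vas arrays, the 6 oviduct or epididymis arrays, or the 21 arrays of a sex for WT tissues and interactions. Benjamini-Hochberg adjustment ran over all 19938 genes, and a gene was called below 0.05. The script was tested on simulated data. Each p reflects only the spread among these arrays, whose number limits the precision.

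The members, lists and tests were chosen with earlier results of these data known. Members named were those called in any mutant comparison, the 4 with the smallest p in each, up to 6 in each direction for WT tissues, and Ccr3 and Ccl6 throughout. Of each marker or pathway list up to 4 called genes were named. Others named were chosen after their values were seen. Alternatives were single probe sets, quantile normalization, the 50% of genes with the higher SD, only the 2 groups compared, the replicate number as a block, leaving out each array, leaving out the 3 arrays that stood apart, array weights and, in uterus, the small RNA mean as a covariate. Same-numbered arrays deviated together (all 3 correlations above 0.1) for AKO and WT oviduct (0.22, 0.29 and 0.48) and for WT epididymis and WT vas (0.29, 0.18 and 0.28), as read from the data.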

Additional observations from a re-analysis of the deposited data

How the results depend on the processing

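Counts of members called moved with some settings. In this section they stand without the share of all genes called in each setting, which can move too. They thus describe how the calls depend on the setting and are not results about the members as a set. Relative to WT, DKO uterus (3 called) had 1 with quantile normalization, 0 with only the 2 groups fitted and 0 with the small RNA covariate. AKDH uterus (3) had 1 with only the 2 groups and 0 with the covariate. AHDK uterus (4) had 7 with only the 2 groups, 20 with array weights and 0 with the covariate. AKO vas (2) had 1 with single probe sets, 0 with only the 2 groups and 6 with array weights. DKO vas (0) had 1 with single probe sets, 5 with array weights and 1 without the arrays that stood apart. AKDH vas (11) had 7 with only the 2 groups and 21 with array weights, and AHDK vas (1) had 0 and 3. AKO epididymis (1) had 0 with single probe sets, 0 with quantile normalization and 3 with array weights. WT oviduct against WT uterus (6) had 3 with quantile normalization, and WT epididymis against WT vas (11) had 19 with array weights. Leaving out 1 array gave 0 to 0 in AKO uterus, 0 to 1 in DKO, 1 to 4 in AKDH and 1 to 5 in AHDK uterus. It gave 0 to 2 in AKO, 0 to 1 in DKO, 6 to 10 in AKDH and 0 to 2 in AHDK vas, 0 to 0 in oviduct, 0 to 1 in epididymis, 3 to 6 for WT oviduct against WT uterus and 8 to 11 for WT epididymis against WT vas. The epididymis count was 0 without WT 2, WT 3, AKO 2 or AKO 3.

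The replicate block left the count at 0 in the oviduct and at 11 for WT epididymis against WT vas, where the numbers pair the arrays. Elsewhere arrays share only a number. There the block gave 1 called in DKO uterus, 1 in AKO vas and 0 in AKO epididymis, and the other counts stayed within 1.5 times.

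Directions turned for Ccr3, Ccl6 and Cxcl13 differences, none of them called. With the small RNA covariate Ccr3 was -0.35 in AKO uterus, -0.39 in AKDH uterus and -0.035 for AKDH minus AKO uterus, and Cxcl13 was -0.82 in AKDH uterus. Array weights gave -0.10 for Ccl6 in AHDK vas. Leaving out 1 array gave ranges that cross 0. Relative to WT they were -0.069 to 0.22 for Ccr3 in DKO vas (lowest without WT 1, also below 0 at -0.05 without DKO 1), -0.074 to 0.22 for Ccr3 in AHDK vas, -0.0043 to 0.35 for Ccl6 in AKDH vas, -0.031 to 0.32 for Ccl6 in AHDK vas and -0.058 to 0.23 for Ccr3 in AKO epididymis. For WT oviduct minus WT uterus the range was -0.20 to 0.023 for Ccr3. For WT epididymis minus WT vas it was -0.29 to 0.012 for Ccr3 and -0.19 to 0.27 for Ccl6. For AHDK minus DKO uterus it was -0.22 to 0.63 for Ccr3 and -0.11 to 0.49 for Ccl6. Of 1169 values for single genes under an alternative, 976 kept direction and side of the threshold, 149 lost the call and 22 gained it. The causes were not tested.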

Other observations

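The 4 probe sets that carry the symbols of the Ccl21 family, lymphoid homing ligands of Ccr7, differed from WT by 0.89 in AKO uterus, 0.82 in AKDH uterus, 0.70 in AHDK uterus and 0.43 in DKO uterus, with limma adjusted p values of 0.197, 0.0662, 0.119 and 0.397. In the vas deferens the same probe sets were called lower in AKDH vas (-0.67, adjusted p 0.0066), and their difference was -0.50 in AKO vas (adjusted p 0.0558). The near-identical copies of this family cannot be told apart by the array. The chemokine family outside the name rule held 11 genes. In AKDH uterus 1 of them was called lower, where 2.65% of all genes were. It was the scavenger receptor Ackr3, which fell by 0.73 on the log2 scale.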
